A study of Mus musculus with 18 samples.

Results

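The question addressed here was which genes answered to the loss of JunB and c-Jun, and to the disease that followed it, differently in 2 compartments of the same epidermis. Of the 18 RNA-seq libraries of the series, 12 were compared, namely all libraries of GFP cells from DKO* mice and of control (Co) cells, in hair follicle stem cells of the bulge (HF-SCs) and in basal keratinocytes (b-KCs). For each gene, the change from Co to GFP in b-KCs was subtracted from the same change in HF-SCs on the log2(FPKM + 1) scale. This difference of changes is called the interaction. A positive value says that the change was higher in HF-SCs, and it can arise from a rise in HF-SCs, from a fall in b-KCs or from both. FPKM are fragments scaled to the length of the transcript and the size of the library, so levels can be set side by side between genes.

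The libraries came from trypsin-separated epidermis of ear skin of 8-week-old mice of mixed background and both sexes. DKO* mice carried floxed JunB and c-Jun (JunB f/f c-Jun f/f) together with K5-Cre-ERT and the mT/mG reporter, received 4 daily injections of 2 mg tamoxifen and were taken at day 7. The keratin 5 promoter places the Cre in basal keratinocytes and in follicle stem cells at once, so neither compartment was targeted alone, and GFP marks the cells in which Cre had acted. Co mice carried K5-Cre and mT/mG with wild-type or heterozygous JunB and c-Jun and received the same tamoxifen, but the labels of their libraries name no colour sort. HF-SCs were sorted as CD45- CD49f high CD34+ and b-KCs as CD45- CD49f high CD34- cells. Co mice 810, 825 and 828 and DKO* mice 814, 815 and 817 each gave 1 HF-SC and 1 b-KC library, hence n = 3 mice in each of the 4 groups. The p-values measure the spread of libraries within a group, pooled over the 6 groups of the series, with no term for the mouse. In these bulk samples fewer cells of a type and less RNA per cell cannot be told apart.

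Bulge stem cells sit in a niche of the hair follicle, divide rarely and feed the follicle in each hair cycle, whereas basal keratinocytes divide to renew the interfollicular epidermis and feed its differentiating layers. JunB and c-Jun are subunits of AP-1, a dimeric transcription factor that binds the motif TGANTCA and regulates cytokines, metalloproteinases and differentiation genes in skin. Their joint loss in mouse epidermis gives a psoriasis-like inflammation, in which TSLP, an epithelial cytokine that acts on dendritic cells and T cells, has been studied.

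The targeted genes were low in all 6 GFP libraries. Jun had 835, 1028 and 1086 FPKM in Co HF-SCs and 69.6, 88.4 and 30.4 FPKM in GFP HF-SCs, beside 876, 979.7 and 1000 FPKM in Co b-KCs and 53.9, 65.4 and 29.6 FPKM in GFP b-KCs. Junb had 463, 436 and 443 FPKM in Co HF-SCs, 71.3, 77.5 and 38.6 FPKM in GFP HF-SCs, 737, 772 and 739.7 FPKM in Co b-KCs and 69.4, 72.2 and 37.2 FPKM in GFP b-KCs. Both fell in both cell types without overlap of the groups, and their interactions of 0.24 for Jun (SE 0.56, adjusted p = 0.8, limma) and 0.81 for Junb (SE 0.42, adjusted p = 0.228, limma) did not pass the test. The 95% interval of the difference was -0.96 to 1.43 for Jun and -0.09 to 1.71 for Junb. By Cd34, Lgr5, Sox9, Lhx2 and Postn, every HF-SC library lay above every b-KC library. Each of these was lower in GFP HF-SCs than in Co HF-SCs. Of these Postn lay closest, at 376 to 510 FPKM in GFP HF-SCs and 98 to 312 in b-KCs. Krt15 was at 3163 to 5405 FPKM in GFP HF-SCs and 3038 to 3102 in Co b-KCs. Cd34 was at 640 to 889 FPKM in Co HF-SCs, 161 to 228 in GFP HF-SCs and at most 2.43 in any b-KC library. Lgr5, a bulge stem cell receptor, was at 143 to 175 FPKM in Co HF-SCs, 33.8 to 66.6 in GFP HF-SCs and at most 2.63 in b-KCs. Depth was read from the steps of low FPKM values as 18650000 to 24336000 reads per library, and 3 reads on a transcript of 1 kb were worth 0.123 to 0.161 FPKM. These floors cover counting error only. A listed 0 need not mean absence. The b-KC library of DKO* mouse 817 had Krt14 listed at 0 where the other 2 GFP b-KC libraries had 6838 and 7002 FPKM, and Co mouse 828 had Krt15 listed at 0 in HF-SCs where the others had 11261 and 11764, and neither gene is interpreted. Mouse 817 stood apart from the other DKO* mice in endothelial and sebocyte markers of its GFP HF-SC library, as given with those lists, and counts without it stand beside the lists they change most.

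Of 12751 genes tested, 110 were called, that is 0.863% (limma, Benjamini-Hochberg adjusted p under 0.01 and an absolute interaction of at least 2). The change was higher in HF-SCs for 77 of them (0.604%) and lower in HF-SCs for 33 (0.259%). With the mouse as a block, which the design allows because each mouse gave both cell types, 190 genes were called with a fixed block (141 higher and 49 lower) and 162 with a random block, and both sets held all 110. Mice weighed unevenly on the count. Without mouse 817, 245 genes were called (182 higher and 63 lower), 109 of them among the 110, and without mouse 815 only 32 were, 27 of them among the 110. The counts were 62 without mouse 810, 101 without 825, 65 without 828 and 52 without 814. Under a wider rule, adjusted p under 0.05 and an absolute interaction of at least 1, 946 genes passed (7.42%), 644 with a higher change in HF-SCs (5.05%) and 302 with a lower one (2.37%). Over all genes tested, 6220 interactions were positive and 6531 negative. The list counts below are to be read beside these numbers and the shares above. Below, a gene rose or fell within a cell type where its adjusted p was under 0.01 whatever the size (limma). By this rule 13% of all genes rose and 12.3% fell in HF-SCs, and 12.5% rose and 12% fell in b-KCs. The per-mouse difference of HF-SC minus b-KC did not overlap between the 3 DKO* and the 3 Co mice in any of the 110, against 51.2% of all genes tested. The interaction by which the 110 were chosen is the difference of the means of these values, so the lack of overlap is largely fixed by the choice. An exact two-sided permutation test of 3 against 3 mice cannot go below p = 0.1.

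The 77 genes with a higher change in HF-SCs were of 2 main kinds. In 33 of them the gene rose in HF-SCs while its change in b-KCs did not pass the test, and in 28 the gene fell in b-KCs while its change in HF-SCs did not pass. Another 8 rose in both, 6 rose in HF-SCs and fell in b-KCs, 1 fell in both and 1 passed in neither. Of the 33 genes with a lower change in HF-SCs, 23 fell in HF-SCs alone by the same test, 6 rose in b-KCs alone, 3 did both and 1 fell in both. Counted over all genes on their own, GFP HF-SCs against Co gave 391 called genes (3.07%) and GFP b-KCs against Co gave 239 (1.87%), under the same rule.

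**Figure D1:**
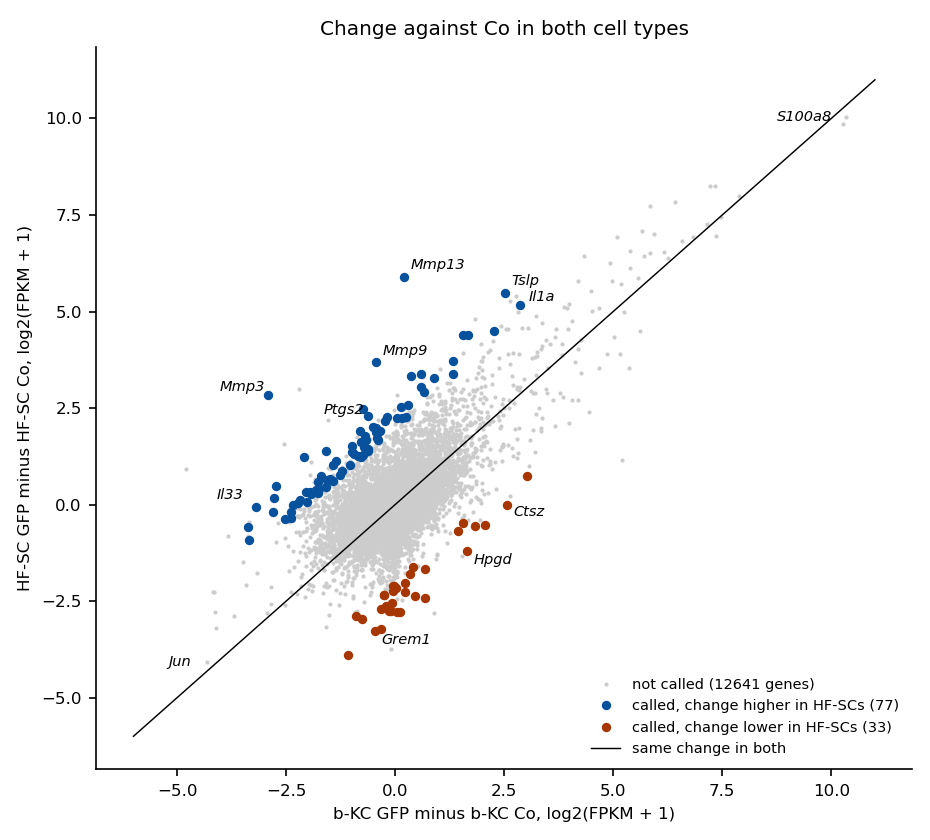
Each point is 1 of the 12751 genes tested, with its change from b-KC Co to b-KC GFP on the x axis and from HF-SC Co to HF-SC GFP on the y axis, both in log2(FPKM + 1). Points on the line changed equally; the 77 genes called above it include Mmp13, Mmp3 and Tslp, the 33 called below it include Grem1, Hpgd and Ctsz, and S100a8 and Jun lie close to the line.

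Tslp, Mmp13 and Ptgs2 were given with the question as markers of the difference, and all 3 were called. Tslp (chromosome 18, 32975037 to 32979453, NCBIM37, + strand) had 1.93, 1.65 and 1.81 FPKM in Co HF-SCs and 133, 131 and 109 FPKM in GFP HF-SCs. In b-KCs, Tslp had 7.09, 6.26 and 7.64 FPKM in Co and 55.2, 52.9 and 30.1 FPKM in GFP. Tslp thus rose in both compartments with no overlap of GFP and Co. In Co every HF-SC library lay below every b-KC library, and in GFP every HF-SC library lay above every b-KC library. Its change was 5.48 in HF-SCs and 2.51 among b-KCs, and the interaction of 2.97 (SE 0.35, adjusted p = 0.000155, limma) was called in all 15 alternatives, with adjusted p from 6.05e-06 to 0.00609.

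Mmp13 (chromosome 9, 7272514 to 7283333, + strand), a collagenase, had 0.182, 0.380 and 0.199 FPKM in Co HF-SCs and 79, 93 and 53.9 FPKM in GFP HF-SCs. In b-KCs, Mmp13 had 4.82, 2.26 and 2.69 FPKM in Co and 6.07, 5.48 and 1.35 FPKM in GFP. The HF-SC groups were far apart and the b-KC groups overlapped. Its interaction was 5.69 (SE 0.69, adjusted p = 0.000169, limma) and was called in all 15 alternatives. Ptgs2 (chromosome 1, 151947254 to 151955140, + strand), which encodes the inducible cyclooxygenase COX-2 of prostaglandin synthesis, had 11.4, 12.3 and 10.1 FPKM in Co HF-SCs and 43.5, 44 and 56.5 FPKM in GFP HF-SCs. In b-KCs, Ptgs2 had 19.4, 32.5 and 24.6 FPKM in Co and 16.6, 17.4 and 20.5 FPKM in GFP, and these ranges overlapped. Ptgs2 rose in HF-SCs by 1.99, its b-KC change was -0.44 (adjusted p = 0.298, limma) and the interaction was 2.43 (SE 0.47, adjusted p = 0.00342, limma). This call was lost when any of mice 810, 825, 828, 814 or 815 was left out, with adjusted p from 0.0138 to 0.0359 and the interaction between 2.31 and 2.62.

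**Figure D2:**
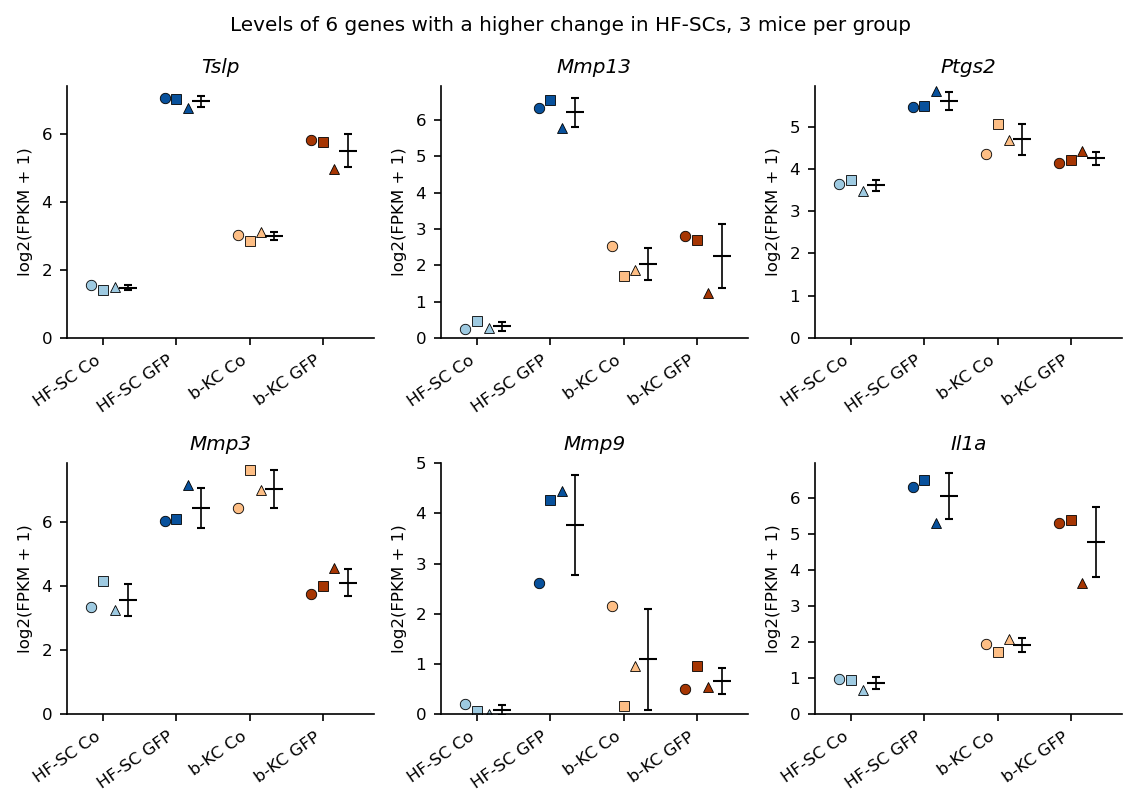
Levels of Tslp, Mmp13, Ptgs2, Mmp3, Mmp9 and Il1a in log2(FPKM + 1) for each library of the 4 groups; the 3 marker shapes are the 3 mice of a group, and the bar beside them gives the mean ± SD (n = 3 mice). In each panel the HF-SC GFP libraries lie above all HF-SC Co libraries and above all b-KC GFP libraries, except that 2 b-KC GFP libraries of Il1a lie just above the lowest HF-SC GFP library.

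Matrix metalloproteinases, which cleave matrix proteins and free bound cytokines, held the largest positive interactions among called genes, Mmp3 and Mmp13. Mmp3, stromelysin 1 (chromosome 9, 7445822 to 7455972), had 9.13, 16.7 and 8.53 FPKM in Co HF-SCs and 65, 67.3 and 141 FPKM in GFP HF-SCs. In b-KCs it moved the other way, from 86.5, 197 and 127 FPKM in Co to 12.4, 15.1 and 22.8 FPKM in GFP. Neither pair of groups overlapped, Mmp3 rose in HF-SCs and fell in b-KCs, and its interaction was 5.77 (SE 0.9, adjusted p = 0.000791, limma). Mmp9, a gelatinase, had 0.154, 0.0506 and 0 FPKM in Co HF-SCs and 5.17, 18.2 and 20.7 FPKM in GFP HF-SCs, beside 3.47, 0.125 and 0.941 FPKM in Co b-KCs and 0.414, 0.943 and 0.459 FPKM in GFP b-KCs. The Co HF-SC libraries held at most 0.154 FPKM, and the b-KC groups overlapped. Its interaction was 4.11 (SE 0.83, adjusted p = 0.00465, limma). Adam8, a membrane protease of a related family, went from 2.22, 2.17 and 2.1 to 16.7, 15.2 and 17.9 FPKM in HF-SCs and from 34.6, 22.7 and 30.5 to 14.3, 13.9 and 23.8 FPKM in b-KCs (interaction 3.21). It had stood far above the HF-SC level in Co b-KCs, and the GFP groups of the cell types overlapped. Without mouse 814 or 815 the call of Mmp3 was lost (adjusted p at most 0.0115 over all alternatives, limma). That of Mmp9 was lost in 5 of the 15, among them without 814, 815, 810 or 828 (at most 0.0439, limma). Adam8 was called in all 15.

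In the list of matrix metalloproteinases, 3 of the 11 genes tested were called with a higher change in HF-SCs (Mmp3, Mmp13 and Mmp9) and none with a lower one, 9 of the 11 interactions were positive, and the median interaction was 1.10, beside -0.018 over all genes tested. With single mice left out, 1 to 3 genes of the list were called. Among inhibitors and the plasminogen system, the median was 0.13 and 1 of 9 was called, or 2 without mouse 817. That gene was Serpinb2, plasminogen activator inhibitor 2, with 167, 234 and 135 FPKM in Co HF-SCs, 217, 194 and 145 FPKM in GFP HF-SCs, 842, 1199 and 987 FPKM in Co b-KCs and 209, 241 and 298 FPKM in GFP b-KCs. Its change in b-KCs was -2.02 and passed the test while its HF-SC groups overlapped, and its call was lost without mouse 810, 828, 814 or 815. Timp3, an inhibitor of metalloproteinases, showed the same form at an interaction of 1.93 (adjusted p = 0.00199, limma), just below the size asked of a call, with 40.2, 47.1 and 42.5 FPKM in Co b-KCs and 7.53, 9.49 and 14.8 FPKM in GFP b-KCs.

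The deleted subunits bind TGANTCA (AP-1), and this motif lay close to the start of several of the genes above. The bases just before the RefSeq start site of 4 called genes are shown because each holds the motif, with matches to TGANTCA or TATAAA in capitals. All 4 stretches were placed on NCBIM37 by exact match and are written 5′ to 3′ in the direction of transcription. They lie at chr9:7272414-7272513 (+ strand) for Mmp13, chr9:7445722-7445821 (+ strand) for Mmp3, chr2:129135709-129135808 (- strand) for Il1a and chr10:18735217-18735366 (- strand) for Tnfaip3, for which TATAAA was not marked. Tnfaip3 has 2 RefSeq promoters, of which 1 is shown. Its stretch lies within the annotated span of the gene, 18720716 to 18735463.
Mmp13: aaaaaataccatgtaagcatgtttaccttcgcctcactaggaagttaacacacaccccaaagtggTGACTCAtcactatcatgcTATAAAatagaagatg
Mmp3: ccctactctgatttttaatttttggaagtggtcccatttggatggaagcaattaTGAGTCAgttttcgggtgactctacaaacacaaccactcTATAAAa
Il1a: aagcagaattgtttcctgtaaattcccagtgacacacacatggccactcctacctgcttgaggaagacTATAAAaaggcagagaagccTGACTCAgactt
Tnfaip3: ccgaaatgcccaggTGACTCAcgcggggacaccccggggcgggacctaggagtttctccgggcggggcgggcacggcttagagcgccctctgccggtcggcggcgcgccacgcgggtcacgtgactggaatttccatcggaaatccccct
The first base of TGANTCA stood at -35 from the start in Mmp13, -46 in Mmp3, -12 in Il1a and -136 in Tnfaip3, and a TATAAA followed or preceded it at -16 in Mmp13, -7 in Mmp3 and -32 in Il1a. Over the 300 bases from 250 before to 50 after the start, RefSeq promoters (GRCm38.p6) were matched by symbol for 58 of the 77 genes with a higher change in HF-SCs and for 25 of the 33 with a lower one. TGANTCA, searched on both strands, was in 13 of 66 promoters (19.7%) of the former and in 4 of 38 (10.5%) of the latter, beside 5.38% of 12789 promoters of the genes tested and 7.81% of all 32851. TATAAA on either strand was in 19.7% and 10.5% of these promoters, beside 7.55% in the genes tested, so both motifs moved alike. The NF-kB motif, with 5 open bases in its middle, was in 66.7% and 60.5%, beside 67.3%, and the CRE motif TGACGTCA in 0 of both sets, beside 3.0%. Genes of the first set with TGANTCA included Il1rn, Il20ra, Serpinb2 and Slc6a14, and of the second Sele, Mme and H2-DMb1. Such matches describe letters in a window and not bound sites.

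Cytokines of the epithelium were called in HF-SCs over b-KCs in 4 of 29 tested, beside 0.604% of all genes. All were positive, namely Tslp, Il33, Il1a and Il1rn. The median interaction of the list was 0.74, and 24 of 29 were positive, beside 6220 of 12751 over all genes. Il1a, the alarmin form of interleukin 1, had 0.963, 0.922 and 0.603 FPKM in Co HF-SCs and 78.7, 89.8 and 38.8 FPKM in GFP HF-SCs, beside 2.88, 2.33 and 3.3 FPKM in Co b-KCs and 38.9, 40.6 and 11.6 FPKM in GFP b-KCs. It rose in both, by 5.18 in HF-SCs and 2.85 among b-KCs, and its interaction was 2.33 (SE 0.52, adjusted p = 0.00819, limma). Il1rn, the interleukin 1 receptor antagonist, went from 9.1, 14.4 and 8.74 to 139, 131 and 89.9 FPKM in HF-SCs. In b-KCs its groups overlapped, with 80.7, 101 and 85.3 FPKM in Co and 184, 195 and 68.2 FPKM in GFP (interaction 2.77, SE 0.54). Il33, another alarmin and ligand of the receptor ST2, was at 12, 14.8 and 13.4 FPKM in Co HF-SCs and 13.2, 11.1 and 14.1 FPKM in GFP HF-SCs. It fell in b-KCs from 92.4, 96.9 and 109.6 FPKM to 6.71, 9.34 and 15.7 FPKM, a change of -3.19, which gave an interaction of 3.13 (SE 0.47, adjusted p = 0.000578, limma). Tslp and Il33 thus reached interactions of nearly equal size by opposite routes, 1 through a rise in HF-SCs beyond that of b-KCs and the other through a fall in b-KCs. The calls of Il1a and Il1rn were each lost when any of mice 810, 825, 828, 814 or 815 was left out, and that of Il33 without 815. Over all 15 alternatives the call of Il1a was lost in 7.

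Among the other cytokines named by the study, Lif, Il23a and Tnf rose in both compartments, and their interactions were not called. Lif, of the interleukin 6 family, rose by 1.19 in HF-SCs and 1.2 among b-KCs, and the 95% interval of the difference was -0.43 to 0.41. Il19, an interleukin 20 family cytokine that was named here after its values were seen, had 216, 158 and 257 FPKM in GFP HF-SCs and 321, 253 and 133 FPKM in GFP b-KCs against at most 0.766 FPKM in any Co library, with an interval of -1.0 to 0.95. Il23a, the p19 subunit of interleukin 23, had 8.21, 11.1 and 2.45 FPKM in GFP HF-SCs and 10.3, 8.33 and 1.66 FPKM in GFP b-KCs, with mouse 817 lowest in both, and its interval was -0.62 to 2.18. Tnf was at 0.502, 0.194 and 0.372 FPKM in Co HF-SCs and 11.9, 9.97 and 6.34 in GFP HF-SCs, beside 4.04, 3.34 and 3.67 in Co b-KCs and 14.2, 17.6 and 7.51 in GFP b-KCs (interaction 1.39, adjusted p = 0.0276, limma), and passed the wider rule. Il1b had an interaction of 1.23 (adjusted p = 0.222) and Il6 of -1.33 (adjusted p = 0.385, both limma). Il6 was at 35.1, 14.4 and 13.8 FPKM in Co HF-SCs and 7.91, 5.3 and 3.29 FPKM in GFP HF-SCs.

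Among cytokine receptors, 3 of 22 were called, beside 0.604% of all genes, all positive, and all 3 through lower b-KC levels. Il1r2, a decoy receptor for interleukin 1, fell in b-KCs from 129, 134 and 163 FPKM to 40.4, 44.8 and 37.2 FPKM and was at 14.1, 13.6 and 11.5 FPKM in Co HF-SCs and 18.7, 16.2 and 14.3 FPKM in GFP HF-SCs (interaction 2.08). Il20ra, a chain of receptors for interleukins 19, 20 and 24, fell in b-KCs from 36.5, 41.9 and 48.1 FPKM to 7.34, 9.82 and 22 FPKM (interaction 2.15). Il6ra, the interleukin 6 receptor, fell in b-KCs from 42.5, 30.1 and 43.5 to 11.4, 12.6 and 26.8 FPKM (interaction 2.1). The list's median was 0.64, and 7 of 22 passed the wider rule, all positive. Of the receptors that rose in HF-SCs, Il1rl2, the interleukin 36 receptor, went from 8.2, 15.6 and 12.8 to 34.4, 35.6 and 33.8 FPKM in HF-SCs and had 32.8, 42.1 and 36.5 FPKM in Co b-KCs and 27.1, 22.1 and 32.3 in GFP b-KCs (interaction 1.92, adjusted p = 0.0016, limma). Ifngr1, an interferon gamma receptor chain, went from 37.7, 36.3 and 33.5 to 105, 95 and 103 FPKM in HF-SCs (interaction 1.67, adjusted p = 0.000132, limma). No call of Il1r2, Il20ra or Il6ra held in each of the 6 fits with a mouse left out, and their adjusted p were at most 0.00683, 0.0331 and 0.0829.

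Prostaglandin and other eicosanoid genes, which act on membrane fatty acids, gave 3 called with a higher change in HF-SCs and 1 with a lower one of 23 tested, with a median of 0.81. Without mouse 817 these counts were 5 and 2, with a fixed mouse block 5 and 1, and without mouse 815 both were 0. Besides Ptgs2, the constitutive cyclooxygenase Ptgs1 fell in b-KCs from 104, 97.5 and 83.6 FPKM to 21.9, 24.9 and 25.4 FPKM. In HF-SCs, Ptgs1 had 10.9, 14 and 9.22 FPKM in Co and 16.3, 17 and 9.42 FPKM in GFP, which overlapped (interaction 2.21, adjusted p = 0.000423, limma). Pla2g4f, a cytosolic phospholipase A2, rose in HF-SCs from 3.43, 6.03 and 3.3 to 14.2, 15.8 and 10.9 FPKM (interaction 2.22). Hpgd, which breaks prostaglandins down, was the called gene in the other direction. It fell in HF-SCs from 136, 78.9 and 151 FPKM to 69.6, 39.3 and 48.2 FPKM and rose in b-KCs from 33.7, 31 and 35.8 FPKM to 141, 120.1 and 71.7 FPKM (interaction -2.83, SE 0.4, adjusted p = 0.000347, limma). In HF-SCs, therefore, Ptgs2 rose while Hpgd fell, and in b-KCs Hpgd rose while Ptgs1 fell. Ptges, a prostaglandin E synthase, rose in both (interaction 1.44, adjusted p = 0.00154, limma). Alox8, a lipoxygenase, rose more in b-KCs, from 0.750, 0.904 and 1.23 to 96.1, 95.6 and 54.5 FPKM, than in HF-SCs, from 4.08, 6.26 and 7.42 to 76.6, 89.6 and 66.6 FPKM (interaction -1.84, adjusted p = 0.00362, limma), and passed the wider rule only. The calls of Ptgs1, Pla2g4f and Hpgd were lost without mouse 815. Outside the list, Pla2g7, which degrades platelet-activating factor, rose in HF-SCs from 1.83, 2.57 and 1.8 to 8.65, 6.32 and 6.15 FPKM and fell in b-KCs from 8.26, 19.4 and 18.2 to 2.67, 3.96 and 6.26 FPKM (interaction 2.98), a call lost without mouse 828, 814 or 815.

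Ligands of the EGF receptor, which drive keratinocyte growth and migration, gave 1 called gene of the 9 tested in the list of ligands and receptors, with 6 of 9 past the wider rule and all 6 positive. The median was 1.38, and 8 of 9 were positive. Ereg, epiregulin, was the called gene, with 0.743, 3.24 and 1.59 FPKM in Co HF-SCs, 10.6, 12.5 and 5.23 FPKM in GFP HF-SCs, 6.31, 4.38 and 4.05 FPKM in Co b-KCs and 4.13, 4.73 and 1.67 FPKM in GFP b-KCs (interaction 2.34, adjusted p = 0.00698, limma). Its call was lost in 7 of the 15 alternatives. Among them were the fits without mouse 810, 828, 814 or 815, where the wider rule passed only 2 to 4 genes of the list. Epgn, epigen, went from 6.21, 3.99 and 3.71 to 43.5, 32.5 and 37.1 FPKM in HF-SCs and from 28.9, 21.3 and 30.8 to 54.7, 52.9 and 36.9 FPKM in b-KCs (interaction 1.99, adjusted p = 0.000303, limma). Hbegf went from 26.4, 28.9 and 19.5 to 87.5, 87 and 68.6 FPKM in HF-SCs and stayed in one range in b-KCs, at 77.1, 98.7 and 70.7 FPKM in Co and 85.4, 95.1 and 94.7 FPKM in GFP (interaction 1.5, adjusted p = 0.00066, limma). Areg, amphiregulin, rose in both (interaction 1.84, adjusted p = 0.0438, limma).

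Some called genes encode transcription factors of epidermal differentiation, for which no list was counted. Grhl3, a factor needed for the skin barrier, rose in HF-SCs from 2.93, 5.24 and 3.25 FPKM to 57.6, 57.3 and 29.5 FPKM and had 39.1, 46.8 and 31.7 FPKM in Co b-KCs and 63.2, 60.5 and 33.3 FPKM in GFP b-KCs (interaction 2.95, SE 0.49, adjusted p = 0.0011, limma). Zfp750, Ovol1 and Ehf, which also act in keratinocyte differentiation, were named after their values were seen. Ehf rose in HF-SCs from 1.76, 3.38 and 2.45 FPKM to 85, 78.6 and 67.4 FPKM and in b-KCs from 16.7, 16.3 and 20.4 FPKM to 96, 91.4 and 81.1 FPKM, so that a wide gap in Co became a narrow one (interaction 2.22). Zfp750 rose in HF-SCs from 6.72, 6.17 and 5.01 to 29.4, 36.2 and 25.1 FPKM beside 67.9, 52.7 and 64.2 FPKM in Co b-KCs and 41.1, 54.4 and 62.7 in GFP b-KCs (interaction 2.39). Ovol1 had an interaction of 2.08. In each of the 4 the GFP HF-SC libraries lay above all Co HF-SC libraries. Ehf was called in all 15 alternatives, Zfp750 was lost without mouse 815, Ovol1 without 814 or 815, and Grhl3 without 810, 814 or 815.

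Genes of the cornified envelope and of differentiation shifted together in sign. Of 40 tested, 39 had a positive interaction, beside 6220 of 12751 over all genes, with a median of 1.24. However, 1 was called and 8 passed the wider rule, beside 0.604% and 5.05% of all genes in that direction. The called gene was Krt10, a suprabasal keratin, which fell in b-KCs from 3418, 2579.9 and 2743 FPKM to 719, 1014 and 1283 FPKM beside 292, 327 and 231 FPKM in Co HF-SCs and 354, 587 and 398 FPKM in GFP HF-SCs (interaction 2.2, adjusted p = 0.00944, limma). Its partner Krt1 had 62.6, 84.9 and 66.2 FPKM in Co HF-SCs, 733, 828 and 219 in GFP HF-SCs, 1073, 953 and 909 in Co b-KCs and 1002, 1148 and 884 in GFP b-KCs (interaction 2.79, adjusted p = 0.0123, limma). Ivl, involucrin, had an interaction of 2.48 (adjusted p = 0.0188, limma). Mouse 817 had the lowest GFP HF-SC value of both Krt1 and Ivl. Without mouse 817, 12 of the 40 were called and 23 passed the wider rule, with a median of 1.64. With the mouse as a block, 9 (fixed) or 5 (random) were called, Krt1 and Ivl among them. With any other mouse left out, 0 to 2 were called. The call of Krt10 was lost without 810, 825, 828, 814 or 815, and in 7 of the 15 alternatives in all. In desmosomes and other junctions, 3 of 18 were called, beside 0.604% of all genes, and all 18 were positive (median 1.12). Dsc2, a desmocollin, rose in HF-SCs from 3.19, 3.99 and 2.81 to 29.8, 29.9 and 14.7 FPKM and overlapped in b-KCs, at 6.81, 4.95 and 5.82 FPKM in Co and 8.72, 7.72 and 3.84 in GFP (interaction 2.39). Dsg1a and Dsg1b, near-identical desmoglein genes between which shared reads may be split in uncertain ways, had interactions of 2.18 and 2.48. The number called was 6 without mouse 817 and with either block, and 0 without 810, 828, 814 or 815.

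Some called genes act on barrier lipids. No list of such genes was counted, and apart from Abca12 and Scd1 they were picked from the called genes after their values were seen. Abca12, which loads lipids into lamellar granules, rose in HF-SCs from 1.11, 4.66 and 1.96 FPKM to 14.6, 19.7 and 12.1 FPKM beside 13, 16.2 and 13.9 in Co b-KCs and 8.98, 8.95 and 8.94 in GFP b-KCs (interaction 2.92, adjusted p = 0.00162, limma). Elovl4, an elongase of very long fatty acids, rose in HF-SCs from 16.8, 24.6 and 15.2 to 123, 132 and 50.2 FPKM (interaction 2.48), and Nipal4, an ichthyosis gene, from 3.6, 5.99 and 4.11 to 25.7, 30.8 and 19.9 FPKM (interaction 2.21). In 3 others the b-KC change alone passed the test. Acer1, a ceramidase, fell there from 153, 146 and 125 FPKM to 58.6, 53.3 and 37.9 FPKM (interaction 2.17). Acsbg1, an acyl-CoA synthetase, fell from 149, 177 and 176 to 35.3, 33.9 and 27.2 FPKM (interaction 2.34). Elovl6 fell from 55.9, 48.3 and 45.7 to 14.2, 13.8 and 9.27 FPKM (interaction 2.27). Slc27a4, a fatty acid transporter, had an interaction of 2.06 while its change passed in neither cell type. Gltp, a glycolipid transfer protein, had an interaction of 2.0 and rose in HF-SCs, by 1.38, while its b-KC change of -0.62 did not pass. All 8 were lost in at least 1 fit without a single mouse, and Acer1 and Acsbg1 only without 815.

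Scd1, a fatty acid desaturase that is high in sebaceous glands, fell in b-KCs from 366, 366 and 277 FPKM to 98.5, 85.4 and 54.5 FPKM, while GFP HF-SC libraries held 92.9, 195 and 31.8 FPKM against 32.8, 35.4 and 37.2 in Co HF-SCs (interaction 3.32). Its call was lost without mouse 810, 825, 828, 814 or 815 and without the filter on low values, with adjusted p up to 0.0503 (limma). Sebocyte markers moved with it. Of 6 sebocyte markers tested, all had a positive interaction, 4 passed the wider rule and none was called, and the median was 2.18. Their mean log2(FPKM + 1) over 7 genes was 2.61 to 2.89 in Co b-KCs, 1.0 to 2.0 in GFP b-KCs, 0.79 to 0.93 in Co HF-SCs and 0.58 to 2.08 in GFP HF-SCs, where mouse 817 was lowest. Mc5r, a receptor of sebocytes, fell in b-KCs from 5.34, 3.23 and 3.67 FPKM to 0.392, 0.429 and 0.445 FPKM, and Soat1 had an interaction of 3.04 (adjusted p = 0.0108, limma). Without mouse 817, 4 of the 6 were called, and 3 were with either mouse block. With any other mouse left out, 0 or 1 was called and 1 or 2 passed the wider rule. The part of sebocytes in Scd1, Acoxl (34.9, 20.5 and 16 FPKM in Co b-KCs and 2.47, 2.49 and 2.71 in GFP b-KCs) and Elovl6 was not tested.

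Of 28 genes of mitosis and DNA replication, 19 passed the wider rule, all with a higher change in HF-SCs, beside 5.05% of all genes in that direction. None reached the size of 2 asked of a call, and the median was 1.54. Ccnb1, cyclin B1, rose in HF-SCs from 8.46, 6.68 and 8.84 FPKM to 105, 69.8 and 65.7 FPKM and in b-KCs from 61.6, 58.8 and 56.9 FPKM to 160.2, 147 and 105 FPKM (interaction 1.97, SE 0.25, adjusted p = 0.000205, limma). Mki67, a proliferation marker, rose in HF-SCs from 1.77, 2.8 and 2.55 FPKM to 11.2, 12.8 and 10.8 FPKM, and was at 12.3, 13.4 and 13.3 FPKM in Co b-KCs and 13, 12.7 and 13.7 FPKM in GFP b-KCs (interaction 1.9, adjusted p = 0.000349, limma). For Mki67, GFP HF-SC libraries thus came close to the level that b-KCs held in both states, whereas over the 28 genes 19 rose in b-KCs and the median gap of HF-SCs to b-KCs was -2.03 in Co and -0.74 in GFP. Top2a had an interaction of 1.93 (adjusted p = 0.000303, limma), and Cenpf, a kinetochore protein, of 1.56 (adjusted p = 0.000157, limma). Pcna, the replication clamp, had an interaction of -0.26 (95% interval -0.88 to 0.36) and Mcm7, of the replicative helicase, 0.06 (-0.34 to 0.45). With single mice left out, 16 to 20 of the 28 passed the wider rule. At a pseudocount of 0.1, 10 were called, without mouse 828 2 were, and without mouse 815 or 817 1 was.

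Of the 18 NF-kB feedback genes, 1 was called and 16 were positive (median 0.32). It was Tnfaip3, which encodes the NF-kB inhibitor A20. Tnfaip3 rose in HF-SCs from 15.9, 22.7 and 23 FPKM to 57, 73.3 and 65.2 FPKM and fell in b-KCs from 119, 117 and 166 FPKM to 63.8, 73.6 and 95.1 FPKM, so that levels far apart in Co overlapped in GFP. Its interaction of 2.41 (SE 0.29, adjusted p = 0.000169, limma) was called in all 15 alternatives. Nfkb2 had an interaction of 1.15 (adjusted p = 0.000791) and Relb of 1.19 (adjusted p = 0.00633, both limma). Of the 14 AP-1 family genes tested, Jun and Junb included, none passed the call or the wider rule (median 0.10), while 2 passed the wider rule without mouse 817 and 1 with either mouse block. The one with the largest interaction was Fosl1 at 1.5 (adjusted p = 0.0771, limma), with 37.2, 53.2 and 47.6 FPKM in Co b-KCs and 13.7, 19.9 and 23.6 in GFP b-KCs. Of 24 immediate-early genes outside AP-1, 4 passed the wider rule with a higher and 1 with a lower change in HF-SCs, and none was called. These counts were 0 and 0 without mouse 815, 1 and 0 without 810, and 5 and 2 without 817.

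In the other direction, genes that were high in Co HF-SCs and near 0 in b-KCs led. Grem1, a secreted antagonist of BMPs (chromosome 2, 113586321 to 113598803), fell in HF-SCs from 99.8, 93.2 and 86.6 FPKM to 6.86, 11.6 and 8.42 FPKM and was at most 0.578 FPKM in any b-KC library. Its interaction was -2.79 (SE 0.23, adjusted p = 1.09e-05, limma). Cck, the peptide hormone cholecystokinin, fell in HF-SCs from 27.2, 21.2 and 27 FPKM to 1.62, 1.94 and 1.77 FPKM and was at most 0.425 FPKM in b-KCs (interaction -2.9, adjusted p = 1.28e-05, limma). Ramp1, a subunit of receptors for calcitonin gene-related peptide, fell in HF-SCs from 10.6, 9.64 and 11.2 FPKM to 1.48, 1.09 and 0.941 FPKM and rose in b-KCs from 0.220, 0.260 and 0.240 FPKM to 1.33, 1.15 and 0.554 FPKM. Ramp1 had the largest negative interaction of the named genes, -3.09 (SE 0.21, adjusted p = 2.67e-06, limma). Gfra2, a receptor for neurturin, fell from 10.2, 9.45 and 11.6 FPKM to 0.828, 0.890 and 0.656 FPKM in HF-SCs (interaction -2.5). Mme, the peptidase neprilysin, fell from 7.62, 11.4 and 13.4 to 0.679, 1.05 and 1.23 FPKM (interaction -2.49). Itm2a fell from 31.9, 21.7 and 29.8 to 5.32, 3.72 and 4.69 FPKM (interaction -2.82), and Spink2, a protease inhibitor, from 35.4, 19.8 and 32.5 to 3.82, 2.68 and 3.72 FPKM (interaction -2.6). GFP HF-SCs and Co libraries did not overlap for any of these 7 genes.

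**Figure D3:**
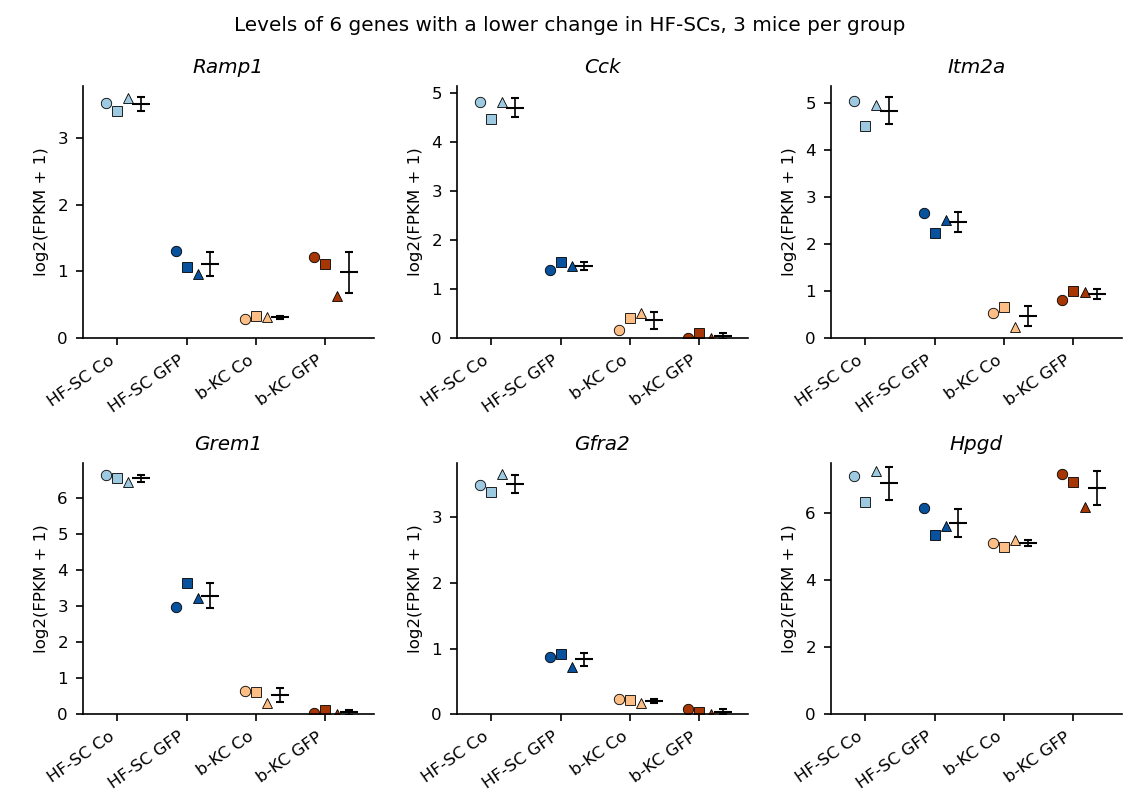
Levels of Ramp1, Cck, Itm2a, Grem1, Gfra2 and Hpgd in log2(FPKM + 1) for each library of the 4 groups, with mouse shapes and mean ± SD (n = 3 mice) as in the plot of Tslp, Mmp13 and Ptgs2. HF-SC GFP libraries lie below all HF-SC Co libraries in each panel, the b-KC libraries of the other 5 genes all lie below HF-SC Co, and Hpgd moved in opposite directions in the 2 cell types.

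For such genes the b-KC change has no room to fall. In 15 of the 33 genes all 6 b-KC libraries were under 1 FPKM, so the interaction equals nearly the HF-SC change, and it rests on the pseudocount. At a pseudocount of 0.1, 22 of the 33 were still called, Cck and Grem1 not among them, and 66 of the 77 with a higher change in HF-SCs were. The other leading genes of this direction were Myl9, a myosin light chain (interaction -2.49), Calr3 (-2.67), 6330403K07Rik (-2.81) and Mir3074-1 (-2.81), a microRNA feature so short that reads of an overlapping transcript may be counted in it. The call of 6330403K07Rik was lost in 6 of the 15 alternatives, without mouse 810, 825, 828, 814 or 815 and at a pseudocount of 0.1. That of Mir3074-1 was lost without mouse 815, and that of Mme without 814. Scx, scleraxis, a tendon transcription factor named after its values were seen, fell in HF-SCs from 40.4, 31.4 and 30.8 to 3.43, 5.27 and 2.74 FPKM (interaction -2.0). Its call was lost in 4 of the 15 alternatives, among them without mouse 810 or 814 and after rescaling of the libraries.

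A smaller group reached a lower change in HF-SCs through a rise in b-KCs. Ctsz, cathepsin Z, rose in b-KCs from 6.62, 6.5 and 6.58 FPKM to 68.6, 55.2 and 21.8 FPKM and stayed at 43.8, 36.9 and 41.6 FPKM in Co HF-SCs and 44.8, 41.4 and 35.5 FPKM in GFP HF-SCs (interaction -2.57, SE 0.42, adjusted p = 0.00109, limma). St3gal4, a sialyltransferase, rose in b-KCs from 1.51, 1.31 and 1.38 FPKM to 10.3, 10.8 and 6.37 FPKM, close to the 10.7, 11.4 and 10.3 FPKM of GFP HF-SCs (interaction -2.6). H2-DMb1, which helps load peptides on MHC class II and was named after its values were seen, rose in b-KCs from 1.61, 3.23 and 3.85 to 13.9, 15.4 and 8.79 FPKM (interaction -2.38). Leukocyte markers, a list that includes class II genes, had a mean log2(FPKM + 1) of 0.53 to 0.59 in Co b-KCs and 1.37 to 1.41 in GFP b-KCs, and of 0.63 to 0.75 in Co HF-SCs and 1.41 to 2.13 in GFP HF-SCs. Their median interaction was 0.04, with 1 of 10 past the wider rule, but their summed level went from 13 to 15 FPKM in Co b-KCs to 302 to 515 in GFP b-KCs, and from 13.8 to 18.5 in Co HF-SCs to 162 to 215 in GFP HF-SCs, which is a larger rise in b-KCs. With either mouse block 1 of the 10 was called with a higher change in HF-SCs. The part of leukocytes in H2-DMb1 was not tested. St3gal4 was called in all 15 alternatives, whereas Ctsz was lost without 810, 828, 814 or 815, and H2-DMb1 without any of 810, 825, 828, 814 and 815.

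Wnt and BMP pathway genes, which set rest and activity of the bulge, split by direction. Of 24 tested, 1 was called each way, Wnt3a higher and Grem1 lower, and 5 passed the wider rule each way (median 0.16). Wnt3a fell in b-KCs from 12, 11.4 and 11.1 FPKM to 1.62, 1.31 and 3.64 FPKM and was at 1.08, 0.837 and 0.567 FPKM in Co HF-SCs and 0.879, 1.28 and 1.74 FPKM in GFP HF-SCs (interaction 2.36, adjusted p = 0.000996, limma), a call lost without mouse 828, 814 or 815. Nog, noggin, another BMP antagonist, fell in HF-SCs from 35.4, 21.9 and 22.7 FPKM to 2.0, 2.93 and 4.4 FPKM (interaction -1.88, adjusted p = 0.0039, limma). Bambi, a decoy receptor of the same pathway, fell in HF-SCs from 14.5, 12.7 and 14.8 to 5.13, 5.85 and 6.06 FPKM (interaction -1.48, adjusted p = 0.00172, limma). Wnt5a rose in HF-SCs from 0.929, 0.805 and 0.908 to 4.08, 2.89 and 2.74 FPKM (interaction 1.53, adjusted p = 0.000315, limma). In the list of bulge stem cell genes none of 25 was called, and 2 passed the wider rule with a lower change in HF-SCs. Of the 25, 20 were negative, beside 6531 of 12751 over all genes, and the median was -0.48. Cd34 itself had an interaction of -1.93 (adjusted p = 0.0184, limma). In this direction 9 of the 25 passed the wider rule without mouse 817, 7 with a fixed and 6 with a random mouse block.

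Sele, the endothelial adhesion molecule E-selectin, was called with an interaction of -2.88 (adjusted p = 0.00807, limma), from 20.8, 21.9 and 12.2 FPKM in Co HF-SCs to 4.12, 2.7 and 0.0867 FPKM in GFP HF-SCs, and the lowest value was that of mouse 817. Endothelial cells also carry CD34 and CD49f. The labels name CD45, CD49f and CD34 for the sort of these libraries, and whether CD31, an endothelial surface protein that the study stained in some experiments, was also gated here is not given in the sources used. Of the 19 endothelial markers, 18 had a negative interaction, beside 6531 of 12751 over all genes. Of these markers 1 was called (Sele), 6 passed the wider rule and the median was -1.48. Their mean log2(FPKM + 1) was 2.12 to 2.65 in Co HF-SCs, 0.20 to 1.59 in GFP HF-SCs with mouse 817 lowest, and at most 0.35 in any GFP or Co b-KC library. Plvap, an endothelial gene, was at 29.6, 33.4 and 18.9 FPKM in Co HF-SCs and 7.0, 12 and 0.167 in GFP HF-SCs (interaction -2.64, adjusted p = 0.0595, limma). In Tom HF-SCs the mean over the 19 markers was 4.61 to 6.25 and in Tom b-KCs 0.31 to 0.61, and the median Tom interaction of these markers was 3.09. The 33 genes with a lower change in HF-SCs had a median interaction of -2.39 in GFP and -1.90 in Tom, and the part of endothelial RNA in them was not tested. The call of Sele was lost without mouse 810, 825, 828, 814 or 815, and in 7 of the 15 alternatives in all. With the mouse as a block, 5 (fixed) or 4 (random) of the 19 were called, and without mouse 817 3 were. With any other mouse left out, 0 were called and 0 to 2 passed the wider rule. Fibroblast and pericyte markers had a median of 0.06 over 4 genes tested and melanocyte markers of 0.64 over 6, with none called. Without mouse 817, 3 melanocyte markers passed the wider rule with a higher change in HF-SCs, the fibroblast and pericyte median was 0.83, and with a fixed block 1 melanocyte marker passed.

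Read the other way, the interaction says how far apart the 2 cell types lay before and after deletion. Between Co HF-SCs and Co b-KCs, 720 genes were called (5.65%), 360 (2.82%) in each direction. Between GFP HF-SCs and GFP b-KCs, 154 were called (1.21%), of which 142 were higher in HF-SCs (1.11%) and 12 in b-KCs (0.0941%). These totals in Co and GFP were 731 and 163 without mouse 817 and 650 to 718 and 117 to 172 with each of the other mice left out. In GFP the count higher in HF-SCs was 114 to 155 and that higher in b-KCs 3 to 17 over these fits, with 114 and 3 without mouse 815, and 463 and 23 at a pseudocount of 0.1. All 77 genes with a higher change in HF-SCs had been lower in Co HF-SCs than in Co b-KCs, with a median gap of -2.78, and the median gap was -0.29 in GFP. In 70 of them the gap was narrower in GFP and in 7 wider. All 33 with a lower change had been higher in Co HF-SCs, with a median gap of 3.40 in Co and 1.11 in GFP, and all 33 gaps were narrower. The interaction by which the 110 were chosen is the GFP gap minus the Co gap, so these directions and the narrowing are largely fixed by the choice and are given as a description. Over all genes the median absolute gap was 0.497 in Co and 0.438 in GFP.

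Genes chosen for their gap in Co may come closer in GFP by the choice alone, and with that limit the 2 sides differed in size. Of the 360 higher in Co b-KCs, 6 were still called in GFP and the median gap went from -2.44 to -0.78. Of the 360 higher in Co HF-SCs, 119 were still called and the median went from 2.65 to 1.62. Chosen in GFP instead, the 142 genes higher in HF-SCs had a median gap of 3.12 in Co and 2.53 in GFP, and the 12 higher in b-KCs -1.79 in Co and -2.08 in GFP. The order of the cell types turned in 23 of the 77 genes, and in 5 of these the gap passed the test in both states. Of the 33 it turned in 7, and in 1 of these, Hpgd, the gap passed in both states. Tslp, Mmp13, Mmp3, Mmp9, Ptgs2, Il1a, Ereg, Slc6a14 and Dsc2 were lower in HF-SCs on average in Co and higher in HF-SCs in GFP. Slc6a14, an amino acid transporter, went from 1.19, 5.12 and 1.47 FPKM to 68.8, 90.1 and 46.7 FPKM in HF-SCs and from 6.82, 7.72 and 7.31 FPKM to 27.8, 34.7 and 13.1 FPKM in b-KCs (interaction 2.83), and its call was lost without mouse 810, 828, 814 or 815.

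**Figure D4:**
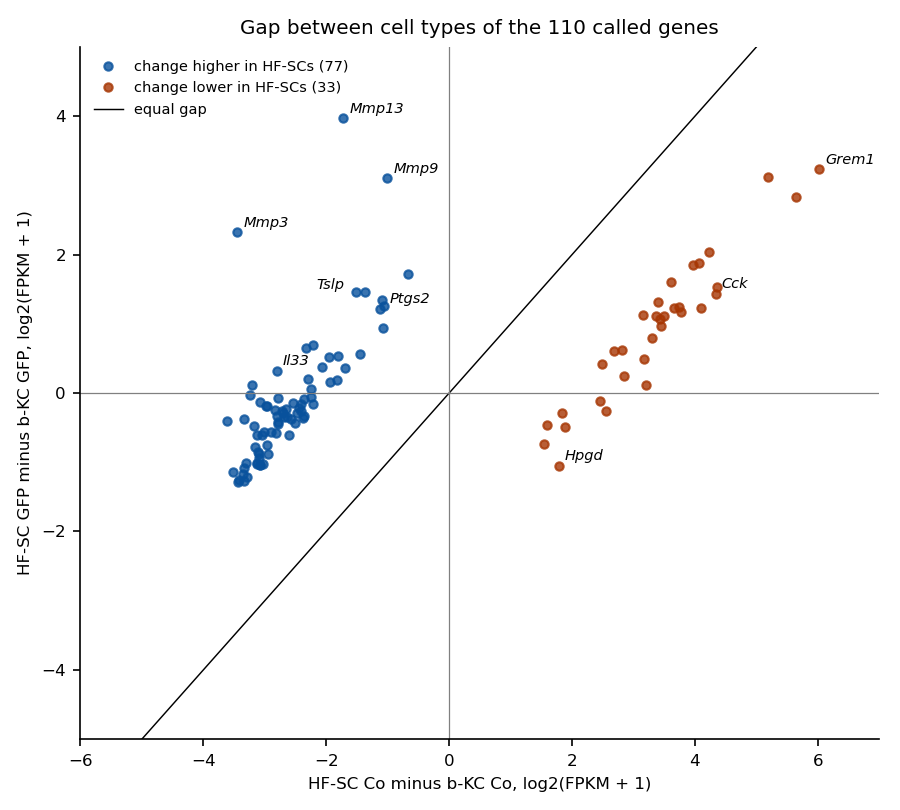
Each point is 1 of the 110 called genes, with the gap between HF-SC Co and b-KC Co on the x axis and between HF-SC GFP and b-KC GFP on the y axis, in log2(FPKM + 1); the diagonal marks an equal gap. The 77 genes start left of 0 and most end near 0 or, as for Mmp13, Mmp3, Mmp9 and Tslp, above it, and the 33 genes start right of 0 and most end closer to it.

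Among the strongest changes were some whose interaction did not pass the test. S100a8, a calprotectin subunit, had 29379, 17977 and 13146 FPKM in GFP HF-SCs and 57584, 48183 and 13415 FPKM in GFP b-KCs against 30.2, 2.87 and 49.2 FPKM in Co HF-SCs and 61.9, 3.27 and 62 in Co b-KCs, and changed by 10.03 in HF-SCs and 10.35 in b-KCs. S100a9, its partner, changed by 9.85 and 10.27. The 95% intervals of the differences, -3.51 to 2.89 for S100a8 and -3.27 to 2.44 for S100a9, were wide, and Co mouse 825 lay far below the other Co mice in both cell types. Lcn2, lipocalin 2, had an interval of -1.66 to 1.85, Fetub of -0.41 to 1.1 and Psors1c2, a gene of a psoriasis locus, of -0.47 to 2.8. Of the 23 S100 and antimicrobial genes tested, none was called, 1 passed the wider rule with a lower change in HF-SCs and the median was 0.10. Past the wider rule were 5 with a higher and 1 with a lower change without mouse 817, 5 and 2 with a fixed mouse block and 1 and 1 with a random block, and still none was called. Among 20 chemokines, none was called and 2 passed the wider rule with a higher change in HF-SCs. Without mouse 817 these were 1 with a higher and 2 with a lower change, with a fixed block 3 and 1, and with a random block 3 and 0. Ccl20, which attracts cells bearing CCR6, rose in HF-SCs from 9.38, 5.89 and 10.8 FPKM to 194, 193 and 145 FPKM and in b-KCs from 96.3, 72.7 and 96.3 FPKM to 484, 547 and 275 FPKM, and its interaction of 1.99 (adjusted p = 0.00469, limma) was just below the size asked of a call. It stayed higher in b-KCs in both states.

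**Figure D5:**
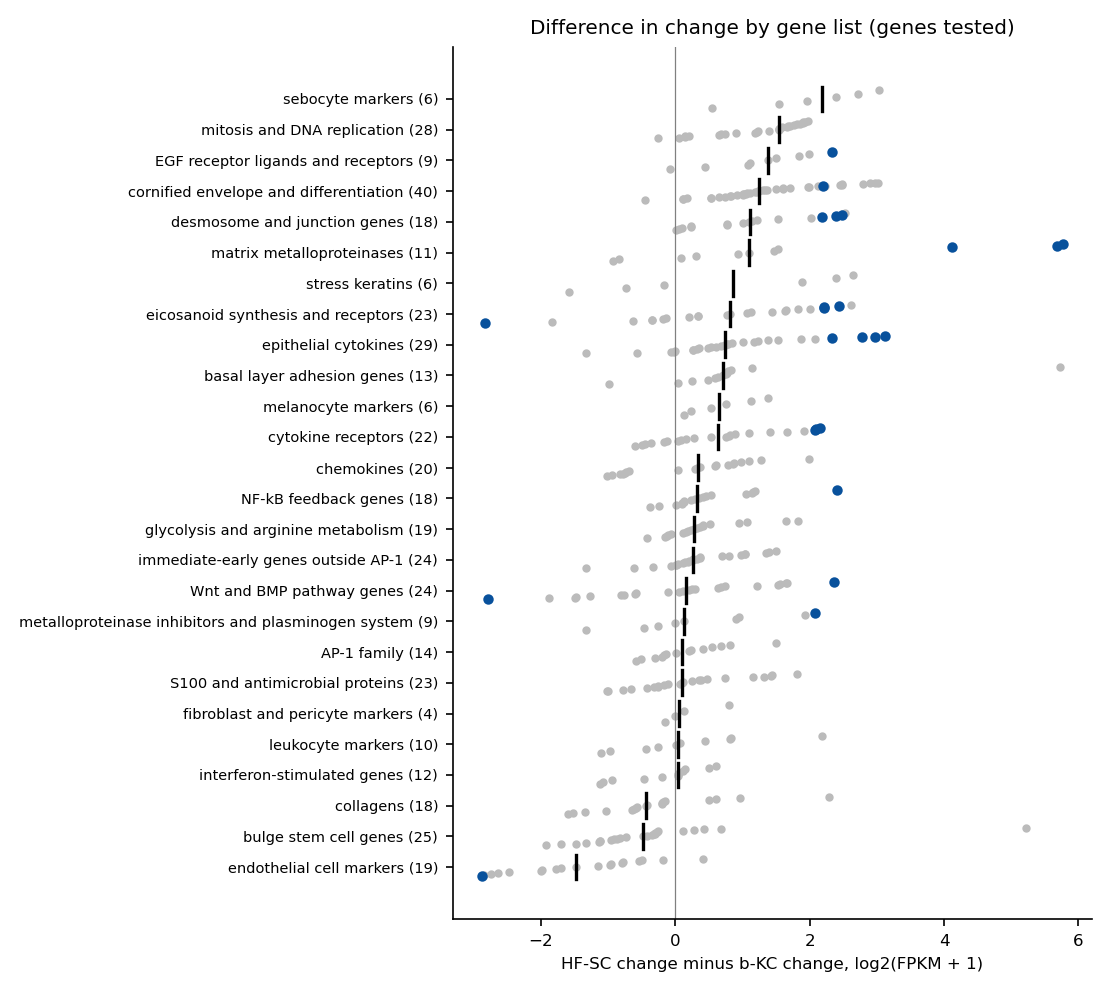
The interaction in log2(FPKM + 1) of each gene tested in 26 lists, sorted by the list's median (black bar), with the number of genes tested in brackets; blue points are called genes and grey points are not. Metalloproteinases hold the 2 largest called values, mitosis genes and cornified envelope genes lie almost wholly above 0, and endothelial markers almost wholly below it.

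Tom cells, in which Cre had not acted, came from the same DKO* mice and were set beside the GFP cells. Their interaction shares the Co libraries, so the 2 are not independent. GFP and Tom cells were sorted by colour and the Co labels name no colour sort. What each gate holds may thus differ, and the part of this in the values was not tested. The Tom interaction gave 252 called genes (1.98%). It was 2.03 for Tslp (adjusted p = 0.00101), 3.6 for Mmp13 (adjusted p = 0.00212) and 1.32 for Ptgs2 (adjusted p = 0.0714, all limma), beside 2.97, 5.69 and 2.43 in GFP. In the direct test of the difference, in which the Co libraries cancel, GFP minus Tom was 0.94 for Tslp (SE 0.35, adjusted p = 0.239), 2.09 for Mmp13 (SE 0.69, adjusted p = 0.147) and 1.12 for Ptgs2 (SE 0.47, adjusted p = 0.33, all limma). Over the 77 genes the median interaction was 2.34 in GFP and 1.78 in Tom, and over the 33 it was -2.39 and -1.90. The GFP minus Tom test is given only from the fit without a mouse term, although GFP and Tom libraries came from the same mice. Of the 110, GFP differed from Tom at an adjusted p under 0.01 in 2, Sele and Ramp1 (limma). An unadjusted p under 0.05 was found for 21 of the 77 and 17 of the 33. Over all genes this test called 205 (1.61%), every one of them lower in GFP. Endothelial markers moved with this result, since 17 of the 19 were among the 205 and their median GFP minus Tom was -4.66, beside 0.028 over all genes. Their part in the other calls was not tested.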

How the data were processed

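RNA of 18 sorted ear skin libraries was made into cDNA with the SMART-Seq v4 kit and unstranded Nextera XT libraries, so overlapping and antisense genes cannot be told apart. The authors aligned single-end reads to NCBI37/mm9 and deposited a table of FPKM values with 23951 genes in rows and the 18 libraries in columns. Their processing notes name TopHat2 2.0.10, Bowtie 1.0.0, Cufflinks 2.2.1 and FastQC 0.11.0, and list GRCm38 and mm10 besides mm9, in roles not given in the sources used here. Read counts were not used here, so depth was estimated from the steps of low FPKM values, of which 76.9% to 81.3% per library lay within 0.1 of a whole read.

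A gene was kept where 3 or more libraries reached 1 FPKM, which left 12751. The log2(FPKM + 1) values were fitted by limma (version 3.58.1, R version 4.3.3) with 6 group means and a moderated variance that followed a trend, and Benjamini-Hochberg adjustment ran over all genes. The scale understates changes of low genes. Calls needed an adjusted p under 0.01 and an absolute log2 difference of at least 2. The fit was tested on simulated data. Plots and promoter searches used Python 3.11.15, pandas 2.3.3 and matplotlib 3.10.9.

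Both cell types came from the same mouse by the mouse numbers in the labels. Deviations from group means correlated between the 2 libraries of a mouse across genes with r from 0.20 to 0.70 (mean 0.41), so fits with the mouse as a block stand beside the lists whose counts they change most. The median of all genes moved by at most 0.06 in any comparison.

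Named genes are Tslp, Mmp13, Ptgs2, Jun, Junb, the 15 called genes with the largest positive and the 15 with the largest negative interaction whose per-mouse differences did not overlap, called members of 26 lists, genes that the study names, and in lists with fewer than 2 called members the 2 with the largest absolute interaction. Other genes were named after their values were seen, namely those said to be so, the sort markers, and list members that were not called. The members, lists and genes were chosen with earlier results of these data known. No set test was run, and lists are described by counts and medians. Alternatives were a pseudocount of 0.1, no filter on low values, a filter on the 12 libraries, a fit of the 12 libraries, eBayes without a trend, rescaled libraries, other thresholds, zeros as missing, a block for the mouse, and fits that left out 1 mouse at a time.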

Additional observations from a re-analysis of the deposited data

Results flagged for a closer look

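These results were singled out because the same contrast, GFP against Co, gave different effects in the 2 cell types by a test of the difference itself. It did so in 110 genes of 12751. The differences of Tslp (2.97), Mmp13 (5.69) and Ptgs2 (2.43), all on the log2(FPKM + 1) scale, are among them, and Ptgs2 did not pass without mouse 810, 825, 828, 814 or 815.

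For Ramp1 and Sele the difference between cell types also differed between GFP and Tom cells of the same DKO* mice. The GFP value minus the Tom value was -1.07 for Ramp1 (adjusted p = 0.00691, limma) and -6.56 for Sele (adjusted p = 9.83e-06, limma). Sele had a difference of -2.88 in GFP and 3.68 in Tom, which have opposite signs. GFP and Tom cells were sorted by colour and the Co labels name no colour sort, so the 3 gates may hold different cells. The mean log2(FPKM + 1) of 19 endothelial markers was 0.20 to 1.59 in GFP HF-SCs and 4.61 to 6.25 in Tom HF-SCs. Endothelial markers moved with Sele in the HF-SC libraries, with a median difference of -1.48 in GFP and 3.09 in Tom, and their part in it was not tested. Groups of 3 mice are too small for the test of single outlying samples.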

How the results depend on the processing

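Counts were not stable. None of the named genes that were called changed sign in any alternative, but their choice by the size of the interaction makes this likely in advance. Of these 66, 14 stayed called in all alternatives. Il19, Lif (-0.11 to 0.61), Lcn2 (-0.26 to 0.74) and Mcm7, which were named but not called, did change sign. A pseudocount of 0.1 gave 232 called genes (176 with a higher and 56 with a lower change in HF-SCs), 88 of them among the 110, and 1431 genes between the cell types in Co and 486 in GFP. Thresholds of an adjusted p under 0.01 with a difference of at least 1 gave 553 (374 and 179), with no minimum 664 (423 and 241), and of 0.05 with 1 gave 946 (644 and 302). With the mouse as a fixed replicate block 190 genes were called (141 with a higher change), and with a random block 162 (118 with a higher change), and neither block removed any of the 110. With each mouse left out in turn the total ranged from 32 to 245, the number with a higher change from 16 to 182 and with a lower one from 16 to 63. The interaction of Ptgs2 ranged from 2.31 to 2.62 in these fits, and adjusted p reached 0.0359. The genes called between cell types ranged from 650 to 731 in Co and from 117 to 172 in GFP, in alternatives added after the data were seen. No filter on low values (90 genes), a fit of the 12 libraries (120), rescaling (109), a filter on the 12 libraries, zeros as missing and eBayes without a trend (110 each) stayed within 1.5 times the main count. FPKM values carry no read counts, so genes near the value of 3 reads, such as Mmp9 in HF-SC Co or Grem1 in b-KCs, have changes that depend on the pseudocount. Groups of 3 mice cannot give an exact permutation p under 0.1.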

Other observations

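Besides the lists above, single called genes of other roles had a higher change in HF-SCs. They were named after their values were seen. Gsta4, a glutathione transferase, had an interaction of 2.71 and rose in both cell types. Hcar2, a receptor for hydroxybutyrate, had 2.30, Slc16a1, a lactate transporter, 2.38 and Notch3 2.02. Bmp3 (2.26) and Ngfr, a neurotrophin receptor (2.30), were called while the change in b-KCs was -2.22 for Bmp3 and -2.18 for Ngfr. On the other side, Lgals1, galectin 1, had -2.26, Nrcam, a neural cell adhesion molecule, -2.08 and Chat, which makes acetylcholine, -2.07. Hcar2 and Slc16a1 were called in all 15 alternatives, and the other 7 lost their call without mouse 815 among other fits.

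The 26 lists also held 2 on metabolism and matrix that the report does not describe. Of 19 genes of glycolysis and arginine metabolism, none was called and 2 passed the wider rule with a higher change in HF-SCs (median 0.28). Of 18 collagens, none was called, 1 passed the wider rule with a higher and 3 with a lower change (median -0.44). Interferon-stimulated genes had a median of 0.04 over 12 tested, with 1 past the wider rule, stress keratins 0.86 over 6, with 1, and basal layer adhesion genes 0.71 over 13, with none. Without mouse 817, 5 of the 13 adhesion genes passed the wider rule, and 1 did with either mouse block. Stress keratins had 2 called genes without mouse 817, 2 with a fixed and 1 with a random block, and collagens 1 in each of these fits, all with a higher change in HF-SCs. With a lower change, 2 interferon-stimulated genes passed the wider rule without mouse 817 and with a fixed block.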
